A study of Mus musculus with 8 samples.

Results

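Cells of 9 annotated types that were present both at postnatal day 7 (P7) and at day 21 (P21) were compared between these ages, within each type, in single-cell RNA-seq of mouse neocortex. The types were taken by the authors' name, and held 21468 of the 60989 cells in the table, 14443 at P7 and 7025 at P21. They were callosal projection neurons (CPN), Layer IV neurons, subcerebral projection neurons (SCPN), interneurons named for Npy and for Vip (Inh_Npy and Inh_Vip), oligodendrocyte precursors (OPC), committed oligodendrocyte precursors (COP), astrocytes and pericytes. The study followed mouse cortex at 3 ages to ask how neuronal programs mature. Both groups used here were wild-type C57BL/6 mice with no treatment named, sampled in somatosensory and motor areas as pools of several animals, with live cells sorted as DAPI-negative and Vybrant DyeCycle Ruby-positive, 2 libraries at P7 (numbered 1 and 2) and 3 at P21 (numbered 6, 7 and 8).

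In rodents the interval between these ages covers the growth of dendrites and synapses on cortical neurons and the start of myelination. CPN send axons to the other hemisphere, SCPN to targets below the cortex, and Layer IV neurons receive thalamic input and act locally, while Npy and Vip interneurons inhibit their neighbours. OPC divide and give rise to COP, which stop dividing on the way to myelin-forming oligodendrocytes, astrocytes support synapses and pericytes wrap capillaries. Larger cells with more RNA yield more unique molecular identifiers (UMIs, counts of distinct captured transcripts), as a general property of droplet methods.

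Every P7 and P21 library was used, and they held 2240 to 11310 cells with 57741928 to 58553300 UMIs at P7 and 7751963 to 17811960 at P21. The 9 types made up 64.2% of P7 cells and 70.5% of P21 cells. Their balance was opposite, with 13014 neurons and 1429 non-neuronal cells at P7 against 625 and 6400 at P21. Medians thus rest on few cells for neurons at P21, and for OPC, COP and pericytes at P7. Barcodes shared by a pair of libraries numbered 8 to 160. The table held no expression values, so the names could not be checked against marker genes. Types were named within each age, and age, collection day, a higher papain concentration at P21 and the dissociation itself cannot be told apart. The authors thinned reads to a like coverage per cell, so UMIs are relative to that coverage.

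A library gave 1 value per type, the median over its cells, where it had at least 20 cells of the type. This left Layer IV with only library 8 at P21 and Inh_Npy with only library 6, and SCPN and Inh_Vip with libraries 6 and 8. Library 7 held 0 SCPN of 2240 cells, which allows a share of up to 0.134%. Differences are log2 of P21 over P7 with their standard error from limma, adjusted over 9 types and 4 measures. A lone library was assumed to vary like the others. The types come from the same 5 libraries but were counted as independent, so the p-values may be too small. The exact permutation test over 10 assignments of 5 libraries cannot go below p = 0.1, and with fewer libraries not below 0.333.

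The first comparison asked whether cells of a type yielded more UMIs at P21. They did in 4 neuronal types, Layer IV, SCPN, Inh_Npy and Inh_Vip, while OPC and astrocytes yielded fewer, and CPN, COP and pericytes did not pass the test. Thus 6 of the 9 types were called (66.7%), 4 higher (44.4%) and 2 lower (22.2%) at P21. The libraries of the ages did not overlap in the same 6 types and overlapped in the other 3.

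Layer IV neurons moved most. Their median was 3162 and 3350 UMIs in libraries 1 and 2 and 9080.5 in library 8. The lone P21 value was 2.79-fold the P7 level (log2 1.48 ± 0.13 SE, adjusted p = 0.00189, limma, n = 2 and 1). In libraries 6 and 7, with only 13 and 10 Layer IV cells and outside the test, the medians were 7675 and 8354.5 UMIs. All 3 P21 values thus stood above both P7 values.

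SCPN had medians of 4922 and 4996 UMIs at P7 and of 6905 in library 6 and 8612 in library 8, each from 23 cells. Both P21 libraries were above both P7 libraries, by 1.56-fold (log2 0.64 ± 0.14, adjusted p = 0.0129, limma). Inh_Vip rose 1.94-fold (log2 0.95 ± 0.17, adjusted p = 0.00712), from 3114.5 and 3209 UMIs at P7 to 5242 in library 6 and 7142.5 in library 8. The 4 Vip cells of library 7, outside the test, had a median of 3216 UMIs, near the P7 values. Inh_Npy had medians of 4213.5 and 4796 UMIs at P7 and of 6593 in the 43 cells of library 6, a 1.47-fold difference (log2 0.55 ± 0.15, adjusted p = 0.0384). Its P21 libraries under 20 cells lay on both sides, at 3682 UMIs in 7 cells and 10134 in 15 cells, and with the library of 15 cells added, the only one of them to enter a test, the difference was 0.86 and did not pass (adjusted p = 0.0503). The Inh_Npy call passed in 5 of 12 alternatives on the log2 scale. Without library 1 or without library 2 none of the 4 neuronal calls passed (adjusted p from 0.138 to 0.247), with log2 values from 0.46 to 1.52, and Inh_Npy was lost without library 7 as well (adjusted p = 0.0545).

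CPN, the most numerous neurons, were not called. Their medians were 5223 and 5411 UMIs at P7 and 3792, 4264 and 5722.5 in libraries 6, 7 and 8, so the P7 values lay inside the range of P21 (log2 -0.23 ± 0.18, adjusted p = 0.289). Without library 8 the difference was -0.40 and passed (adjusted p = 0.00176). The change of each other type was then set against that of CPN. This fit gave all 8 types 1 common spread and counted them as independent. They share CPN, so its p-values may be too small. The rise from P7 to P21 was larger than that of CPN in the same libraries by 1.37 ± 0.20 on the log2 scale in Layer IV, 1.14 ± 0.17 in Inh_Vip, 1.04 ± 0.20 in Inh_Npy and 0.83 ± 0.17 in SCPN. These 4 of 8 types passed the test of the difference from CPN (50% of types, adjusted p from 2.13e-05 to 0.000326, limma), and no non-neuronal type did. With each library left out in turn, every one of these differences that could still be computed passed. CPN and Layer IV at P21 were subclusters of 1 cluster, and these differences were not computed with them joined. Joined, their medians were 4831.5 and 4959 UMIs at P7, near the 4922 and 4996 of SCPN. At P21 they were 4139 in library 6 and 8534 in library 8, against 6905 and 8612 in SCPN.

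The order of types by UMIs therefore changed. At P7 it ran CPN, SCPN, Inh_Npy, COP, pericytes, Layer IV, Inh_Vip, astrocytes and OPC. At P21 it ran Layer IV, SCPN, Inh_Npy, Inh_Vip, CPN, COP, pericytes, astrocytes and OPC. Among neighbours in these orders, the tested libraries overlapped at P7 from Inh_Npy through COP, pericytes and Layer IV to Inh_Vip and between astrocytes and OPC, and at P21 from Inh_Npy through Inh_Vip and CPN to COP. The other neighbours did not overlap, and OPC were last at both ages.

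**Figure D1:**
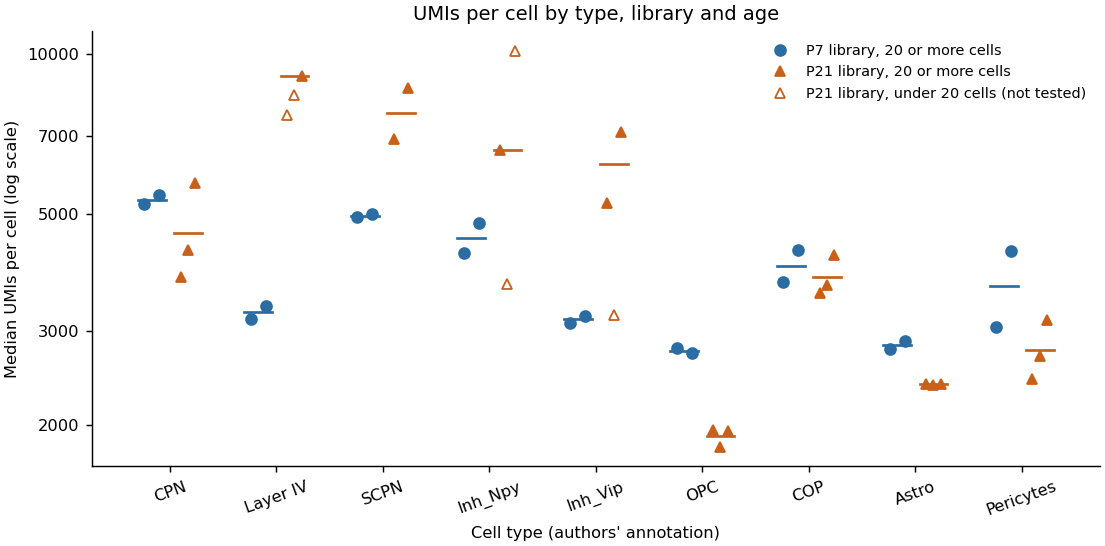
Median UMIs per cell (vertical axis, log scale) of each library for the 9 shared types, with P7 as circles and P21 as triangles, and lines at the mean of the libraries tested. Open triangles are libraries with under 20 cells. Layer IV stood at 3162 and 3350 UMIs at P7 and at 9080.5 in the tested P21 library, while OPC fell from 2727 and 2786 to between 1817 and 1951.

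Non-neuronal cells moved the other way or not detectably. OPC fell from 2786 and 2727 UMIs at P7 to 1951, 1817 and 1946 in libraries 6, 7 and 8. The 3 P21 values were all below both P7 values, and the level fell by 30.9% (log2 -0.53 ± 0.08, adjusted p = 0.00245), and this call held under each of 14 alternatives that kept OPC apart from COP. Joined with COP, the difference was -0.17 and did not pass (adjusted p = 0.274). Astrocytes fell by 15.8% (log2 -0.25 ± 0.08, adjusted p = 0.0345), from 2779.5 and 2878 UMIs to 2386, 2375 and 2385, without overlap. In cells under 5% mitochondrial the astrocyte difference was -0.014 (adjusted p = 0.961), and with means over cells it was -0.58. Without library 7 it was -0.25 and did not pass (adjusted p = 0.0515).

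The astrocyte value depended on which clusters were counted. P7 astrocytes held a cluster of 868 cells with a median of 2464.5 UMIs and one of 263 cells with 6699, and P21 astrocytes a cluster of 513 cells with 2273 and one of 114 cells with 3277.5. In the larger cluster of each age alone, an alternative chosen after the data were seen, the difference was -0.15 and did not pass (adjusted p = 0.217). COP had 3713 and 4266 UMIs at P7 and 3542, 3667 and 4183.5 at P21, and the ages overlapped (log2 -0.07 ± 0.12, adjusted p = 0.596), but with means over cells the difference was -0.28 and passed (adjusted p = 0.0478). Pericytes, with only 46 and 38 cells in the P7 libraries, had 3049.5 and 4249 UMIs at P7 and 2443, 2695.5 and 3156 at P21 (log2 -0.39 ± 0.18, adjusted p = 0.109), with library 8 overlapping P7. The pericyte difference passed in 4 of 13 alternatives, with log2 values from -0.63 to -0.15 over all 13.

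The gene minimum of the authors cuts into the types with few UMIs. The share of OPC with under 1200 genes, close to the minimum of 1000, was 15.9% at P7 and 35.8% at P21, and that of astrocytes 32.1% and 39.9%. For CPN it was 0.888% and 7.60%, and for Layer IV 2.02% and 0%. Cells under the minimum were not analysed here, and the part of that limit in the differences was not tested.

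The spread of UMIs among cells of 1 library changed in opposite directions too. The interquartile range on the log2 scale, averaged over libraries, was 0.947 in OPC, 1.08 in astrocytes and 1.01 in pericytes at P7, and 0.549, 0.501 and 0.444 at P21. In COP it was 1.06 at P7 and 0.788 at P21. In CPN it was 0.618 at P7 and 0.994 at P21, and in Layer IV 0.616 and 0.279. It rose from 0.486 to 0.795 in SCPN, from 0.684 to 1.13 in Inh_Npy and from 0.647 to 0.742 in Inh_Vip. Layer IV and Inh_Npy had only 1 such library at P21. These spreads are descriptions without a test.

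Genes per cell were compared next. The same 4 neuronal types had more genes at P21 and OPC had fewer, so that 5 of 9 types were called (55.6%), 4 higher (44.4%) and 1 lower (11.1%). Layer IV rose from 1727 and 1777 genes to 3621 in library 8 (2.07-fold, log2 1.05 ± 0.12, adjusted p = 0.000135). Inh_Vip went from 1658 and 1693 genes to 2535 and 3073 (log2 0.74 ± 0.11, adjusted p = 0.000554). These 2 calls held under each of 13 alternatives. SCPN went from 2317 and 2365 genes to 3125 and 3615 (log2 0.52 ± 0.11, adjusted p = 0.00227), and Inh_Npy from 2033 and 2204 to 2948 (log2 0.48 ± 0.13, adjusted p = 0.0102). Both were lost without library 1 or library 2 (adjusted p from 0.0667 to 0.164).

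OPC went from 1473 and 1614 genes to 1298, 1214 and 1317 (log2 -0.27 ± 0.09, adjusted p = 0.019), without overlap, a call lost without library 1, 2 or 7 (adjusted p = 0.106, 0.274 and 0.0545). Astrocytes did not overlap either, at 1402.5 and 1422 genes against 1272.5, 1240 and 1273, but did not pass the test (log2 -0.16 ± 0.08, adjusted p = 0.109). CPN stood at 2336 and 2388 genes at P7 and at 2170, 2301 and 2921 at P21, and COP at 1818 and 1857 and at 1820, 1851 and 2095. In CPN and COP the ages overlapped, with log2 differences of 0.05 ± 0.12 and 0.06 ± 0.09. Pericytes overlapped as well (log2 -0.17 ± 0.13, adjusted p = 0.271). Astrocytes passed in 5 of 14 alternatives, though among cells under 5% mitochondrial their difference turned to 0.12, and pericytes passed in 4 of 13. Without library 8 CPN and COP turned to -0.080 and -0.0015, and with means over cells to -0.017 and -0.076. Against CPN, the change in genes was larger by 0.74 in Layer IV, 0.64 in Inh_Vip, 0.60 in Inh_Npy and 0.43 in SCPN, 4 of 8 types called (50%), of which 2 passed without library 1 and 3 without library 2.

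**Figure D2:**
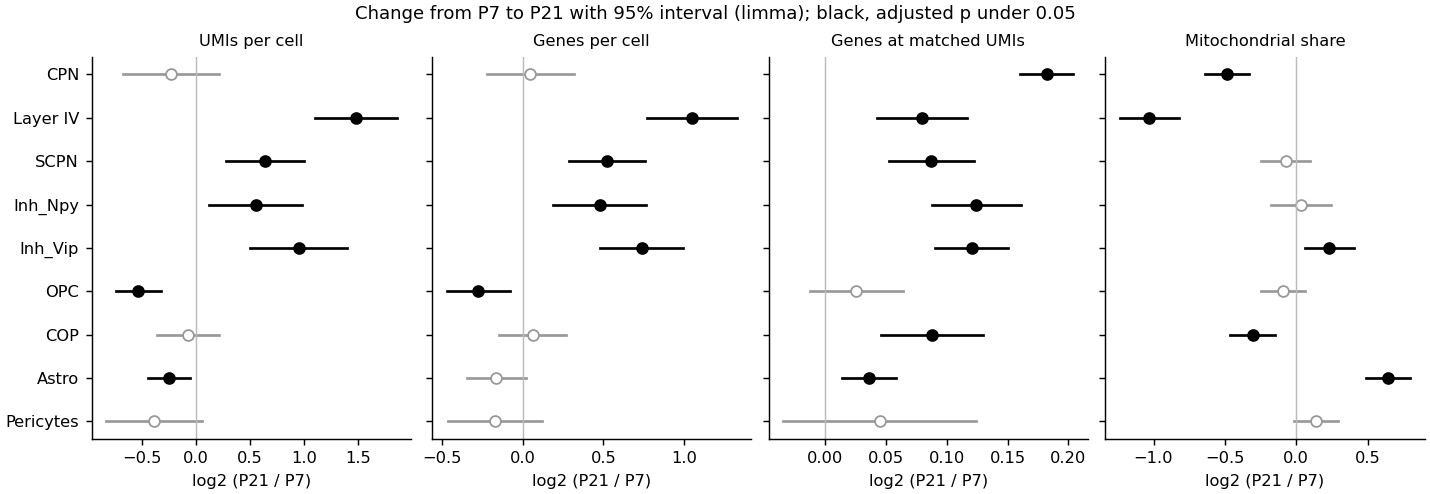
Log2 of P21 over P7 (horizontal axes, a separate scale in each panel) for 4 measures in the 9 types, with the 95% interval from limma and black where the adjusted p was under 0.05. UMIs and genes rose in Layer IV, SCPN, Inh_Npy and Inh_Vip, and genes at matched UMIs were higher at P21 in 7 types, by 0.18 in CPN.

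A cell with more UMIs shows more genes, so genes were also compared at the same number of UMIs. Within each library a line of log2 genes on log2 UMIs was read at 1 point per type, midway on the log scale between the medians of the ages. At matched UMIs 7 of the 9 types showed more genes at P21 (77.8%), and none showed fewer. This held for all 5 neuronal types, for COP and for astrocytes. In Layer IV, SCPN, Inh_Npy and Inh_Vip it rests on the line alone. They had too few cells for a comparison within a narrow range of UMIs without a line.

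CPN had the largest increase of the 9 types in this fit, although neither their UMIs nor their genes passed the test. At 4904 UMIs the line gave 2235 and 2237 genes in the P7 libraries and 2527, 2532 and 2552 in libraries 6, 7 and 8. The 3 P21 values were all above P7, by 13.5% (95% interval 11.7% to 15.2%, log2 0.18 ± 0.01, adjusted p = 7.04e-06). The call held under each of 16 alternatives. Without a line, CPN with 3000 to 4000 UMIs had medians of 1818 and 1833 genes at P7 and 2002 and 2056.5 in libraries 6 and 8. In every UMI bin with at least 10 cells of both ages the P21 median was above the P7 medians.

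The increase at matched UMIs was smaller in each of the other 8 types than in CPN (100% called), by 0.05 in Inh_Npy to 0.16 in OPC on the log2 scale, with each type read at its own number of UMIs. Read at 3500 UMIs in all types the Inh_Npy difference turned to 0.039. Those of SCPN, Inh_Vip and pericytes did not pass (adjusted p = 0.149, 0.311 and 0.0732, limma), and those of Layer IV, OPC, COP and astrocytes did. For Layer IV this reading lay far below the cells of library 8. Their lower quartile was 8362 UMIs, and 3 of 178 cells had 3000 to 4000 UMIs. In cells with 3000 to 4000 UMIs, without a line, OPC differed from CPN by -0.0054 (adjusted p = 0.924), COP by -0.020 (adjusted p = 0.624), astrocytes by -0.064 (adjusted p = 0.226) and pericytes by -0.077 (adjusted p = 0.166), so that the place of CPN depends on the matching. Of these 8 differences, 4 passed without library 1, 2 without library 2, and 4 of the 7 left without library 8. The increase itself was 8.99% in Inh_Npy, 8.71% in Inh_Vip, 6.23% in SCPN and 5.66% in Layer IV. For Layer IV the point of 5436 UMIs lay outside the interquartile range of the cells in each of its 3 libraries, so that this value rests on the line, and for Inh_Vip it lay inside in 1 of 4 libraries. COP gave 1822 and 1840 genes at P7 and 1936, 1912 and 1989 at P21, 6.27% more (adjusted p = 0.00507). Astrocytes gave 1336 and 1328 genes and then 1368, 1360 and 1369, a difference of 2.52% (adjusted p = 0.0129), which passed in 8 of 16 alternatives. The Layer IV call was lost without library 1 or 2 (adjusted p = 0.0903 and 0.106), that of COP without library 1 (adjusted p = 0.0508) and that of astrocytes without library 1, 2 or 6 (adjusted p = 0.247, 0.381 and 0.0673).

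OPC overlapped, at 1425 and 1416 genes at P7 and 1449, 1418 and 1470 at P21 (1.78%, 95% interval -0.902% to 4.53%, adjusted p = 0.212). Pericytes overlapped too (log2 0.04 ± 0.03, adjusted p = 0.271). Both passed without library 7 (adjusted p = 0.0173 and 0.00207), and in all OPC passed in 2 of 16 alternatives and pericytes in 3 of 15. With cells in a window in place of the line, only CPN, OPC, COP, astrocytes and pericytes could be tested. Of these, 1 of 5 types was called within 0.25 log2 of the point and 2 of 5 at 3000 to 4000 UMIs.

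**Figure D3:**
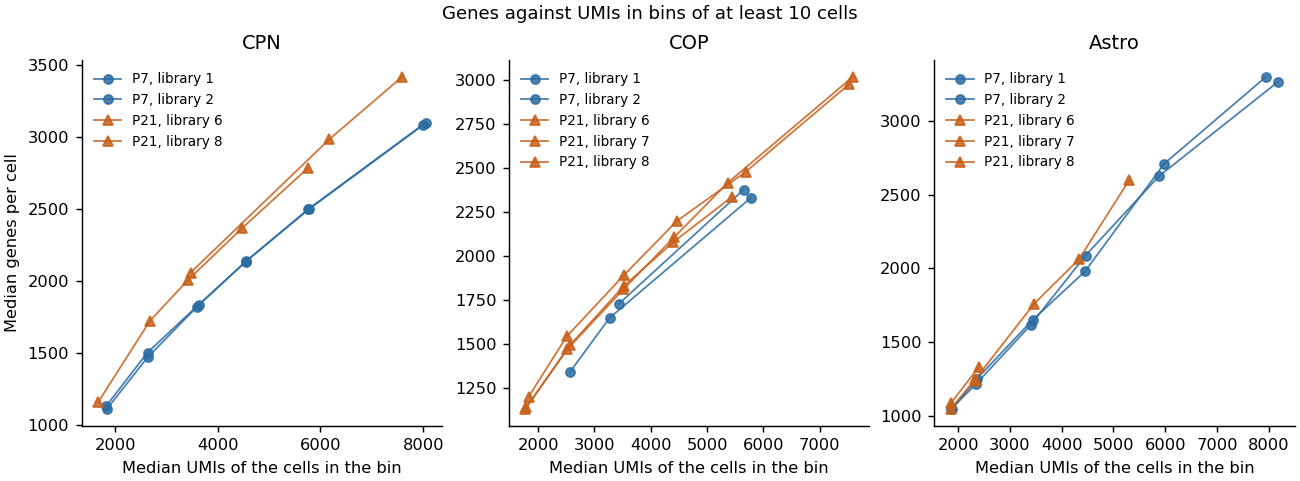
Median genes per cell (vertical axes) against median UMIs (horizontal axes) in bins of at least 10 cells, for CPN, COP and astrocytes, with 1 line per library, P7 in blue and P21 in orange. In CPN with 3000 to 4000 UMIs the P21 libraries stood at 2002 and 2056.5 genes against 1818 and 1833 at P7, while the astrocyte lines ran close together.

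The mitochondrial share of UMIs, a measure that responds both to mitochondrial content and to damage of the cell, separated the types in direction. It fell in CPN, Layer IV and COP, and rose in astrocytes and Inh_Vip, 5 of 9 types called (55.6%), 3 lower (33.3%) and 2 higher (22.2%). The tested libraries of the ages did not overlap in any of the 9 types (100%), which is a weak criterion with so few libraries. Layer IV and Inh_Npy had only 1 tested library at P21. The P21 libraries of Inh_Npy under 20 cells lay on both sides of P7, at 5.36% in 7 cells and 3.83% in 15 cells.

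Astrocytes had medians of 4.67% and 4.72% at P7 and 6.82%, 7.65% and 7.56% in libraries 6, 7 and 8. All 3 P21 values were above every other type of either age (1.56-fold, log2 0.64 ± 0.07, adjusted p = 4.63e-07). In P21 astrocytes 41.3% of cells lay above 8%, against 6.01% at P7, and the authors kept cells under 10%, so the upper end of the P21 values is cut. The call held under each of 14 alternatives, with log2 values from 0.18 among cells under 5% to 0.75 in the largest cluster of each age. Against CPN in the same libraries the change was larger by 1.13 ± 0.15 (adjusted p = 0.00117).

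CPN fell from 5.85% and 5.75% to 4.27%, 4.70% and 3.56% (log2 -0.48 ± 0.07, adjusted p = 1.88e-05), without overlap, and lost the call without library 1 or library 2 (adjusted p = 0.106 and 0.0963). Layer IV fell from 5.84% and 5.61% to 2.81% in library 8 (log2 -1.03 ± 0.10), the lowest median of all tested. With this lone P21 library, its standard error rests on the spread shared by all types. Its 13 and 10 cells in libraries 6 and 7, outside the test, stood at 2.76% and 3.23%. COP fell from 4.16% and 4.65% to 3.63%, 3.52% and 3.53% (log2 -0.31 ± 0.07, adjusted p = 0.00189). The Layer IV and COP calls held under each of 13 and 14 alternatives.

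Inh_Vip rose from 4.35% and 4.02% to 4.59% and 5.25% (log2 0.23 ± 0.08, adjusted p = 0.0175), but passed in only 5 of 13 alternatives and was lost without library 1, 2 or 8 (adjusted p = 0.138, 0.307 and 0.151). SCPN, at 5.34% and 5.07% and then 4.97% and 4.91%, and Inh_Npy, at 4.95% and 4.81% and then 4.996%, differed by -0.07 ± 0.08 and 0.03 ± 0.10 on the log2 scale. OPC stood at 4.48% and 4.68% and then at 4.40%, 4.23% and 4.24%, and pericytes at 4.47% and 4.54% and then at 4.67%, 4.99% and 5.20%. None of these 4 passed. Under alternatives OPC passed among cells under 5% (log2 -0.18, adjusted p = 0.00192) and with means over cells (log2 -0.12, adjusted p = 0.0419), and pericytes without library 6 (log2 0.18, adjusted p = 0.0295) and in the largest cluster of each age (log2 0.22, adjusted p = 0.0196). Relative to CPN, 6 of 8 types changed more upward (75%), SCPN, both interneurons, OPC, astrocytes and pericytes, by 0.39 to 1.13, while Layer IV at -0.32 and COP at 0.18 did not pass. Of the 6, 2 passed without library 1 and 1 without library 2.

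**Figure D4:**
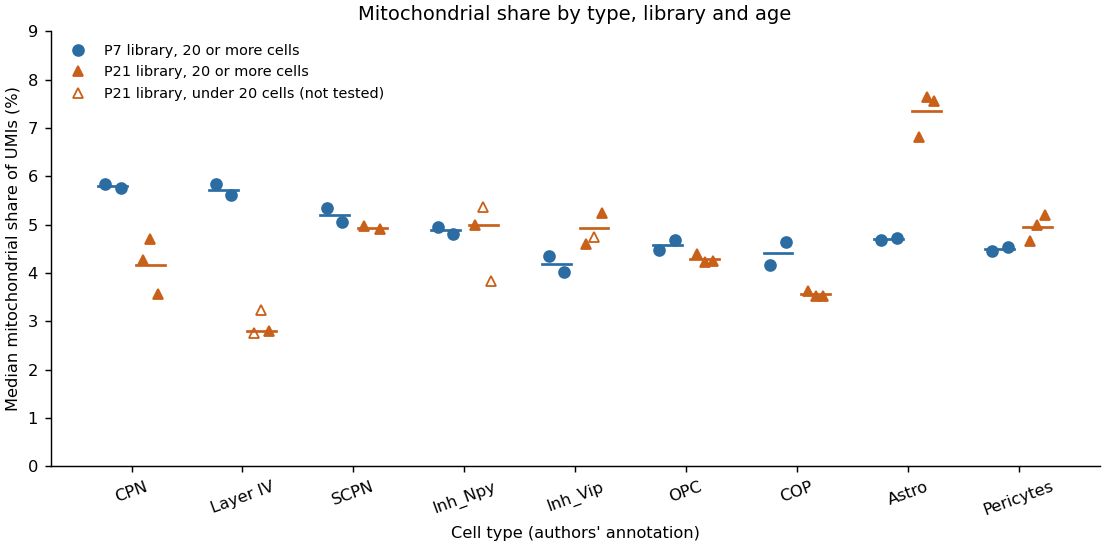
Median mitochondrial share of UMIs in percent (vertical axis, from 0) of each library for the 9 types, P7 as circles and P21 as triangles, with lines at the mean of the libraries tested and open triangles for libraries under 20 cells. Astrocytes rose from 4.67% and 4.72% to between 6.82% and 7.65%, while Layer IV fell from 5.61% and 5.84% to 2.81%.

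A share can change through either of its parts, so mitochondrial UMIs and all other UMIs were tested apart. In Layer IV both rose, the mitochondrial UMIs from 185 in both P7 libraries to 252.5 in the only tested P21 library (1.36-fold), and the others 2.89-fold. Both were called. With the P7 medians tied, the standard error of the mitochondrial UMIs was only 0.023 on the log2 scale. In the other types it ran from 0.061 in OPC to 0.36 in Inh_Vip. The fit took little spread from other types (prior degrees of freedom 0.56), so the Layer IV call for mitochondrial UMIs leans on this tie. That call was lost in 6 of 13 alternatives. Astrocytes had 129 and 140 mitochondrial UMIs at P7 and 163, 172 and 187.5 at P21 (1.29-fold, adjusted p = 0.0326), and their other UMIs fell by 18.5% (adjusted p = 0.0284). With means over cells in place of medians the mitochondrial UMIs of astrocytes differed by -0.08 on the log2 scale, and among cells with at least 1500 genes by -0.07, so their direction was not stable.

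In COP mitochondrial UMIs fell by 25.6% (adjusted p = 0.0332), while the other UMIs did not pass (adjusted p = 0.571). In OPC mitochondrial UMIs fell by 32.4% and the others fell by 29.0% (both adjusted p = 0.00773). In CPN the mitochondrial UMIs were 298 and 309 at P7 and 145, 213 and 223 at P21, without overlap, but did not pass (adjusted p = 0.0815), although 7 of 14 alternatives did, with log2 values from -0.79 to -0.44 over all 14. Over types, 4 of 9 were called for mitochondrial UMIs (44.4%), with the libraries of the ages not overlapping in 8 (88.9%), and 6 of 9 for the others (66.7%). In limma 0 of the 18 tests passed after adjustment without library 1 or without library 2, with 5 and 3 at an unadjusted p under 0.05.

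Some of the types were split from 1 cluster. By the cluster labels, Layer IV and CPN at P21 were both subclusters of a cluster named CPN. At P7 Layer IV was a separate cluster whose label also named it CPN. The interneurons were split from a joint cluster at both ages, and OPC and COP were split from 1 cluster at P7. With types joined after the data were seen, CPN and Layer IV together had 4831.5 and 4959 UMIs at P7 and 4139, 5248 and 8534 at P21. These overlapped (log2 0.22 ± 0.34, adjusted p = 0.572), with library 8, which held 178 of the 201 P21 Layer IV cells, the highest. Their mitochondrial share still fell (log2 -0.68 ± 0.13, adjusted p = 0.00422) and their genes at matched UMIs still rose (log2 0.15 ± 0.01, adjusted p = 0.000131). The 2 interneuron types together had 0.71 ± 0.20 more UMIs on the log2 scale, which did not pass (adjusted p = 0.062), and 0.59 ± 0.11 more genes, which did (adjusted p = 0.0221). OPC and COP together had 3191 and 3346 UMIs at P7 and 3212, 2944 and 2614 at P21, which overlapped (log2 -0.17 ± 0.11, adjusted p = 0.274), as did their genes (log2 -0.047 ± 0.052, adjusted p = 0.449). Their mitochondrial share fell (log2 -0.26 ± 0.06, adjusted p = 0.0139). The counts of alternatives given with single types leave out these joined types and untransformed values.

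The last comparison asked how the non-neuronal types stood to one another in number, which does not depend on how many neurons survived dissociation. Among cells that passed the authors' filters, astrocytes lost ground to each of the other 3 types. Of P21 astrocytes 41.3% lay above 8% mitochondrial, against 1.58% of COP, 3.51% of OPC and 5.85% of pericytes. Those with under 1200 genes made up 39.9%, against 6.36%, 35.8% and 24.0% in the same order. The part of these limits in the ratios, and that of how each non-neuronal type survived dissociation, was not tested. Of 6 ratios, linear combinations of 3, the 3 with astrocytes were called (50%), and the other 3 were not.

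At P7 a library held 0.1004 and 0.0890 COP per astrocyte, and at P21 24.1, 18.2 and 1.61 in libraries 6, 7 and 8. The ages did not overlap (log2 6.54 ± 1.07, adjusted p = 5.26e-05), and library 8, with 542 of the 627 P21 astrocytes, stood nearest to P7. OPC per astrocyte went from 0.0950 and 0.0942 to 6.34, 7.46 and 1.67 (log2 5.48 ± 1.07, adjusted p = 0.000139). Astrocytes per pericyte went from 12.1 and 15.1 to 0.195, 0.0608 and 0.733 (log2 -6.01 ± 1.07, adjusted p = 7.21e-05). These calls held under each of 10 alternatives.

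Ratios among OPC, COP and pericytes overlapped between the ages. OPC per COP stood at 0.946 and 1.06 at P7 and at 0.263, 0.410 and 1.04 at P21 (log2 -1.06 ± 1.07, adjusted p = 0.504), so that COP outnumbered OPC in libraries 6 and 7 but not in library 8. Without library 8 this ratio passed (log2 -1.61, adjusted p = 0.0193). OPC per pericyte was 1.15 and 1.42 and then 1.23, 0.453 and 1.22, and COP per pericyte 1.22 and 1.34 and then 4.70, 1.11 and 1.18. The 95% intervals of these 2 differences, -2.78 to 1.71 and -1.72 to 2.76 on the log2 scale, leave room for changes of several-fold in either direction. At P7 these ratios rest on 38 to 56 cells of OPC, COP and pericytes in each library, and p-values measure the spread between libraries, which may be technical.

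**Figure D5:**
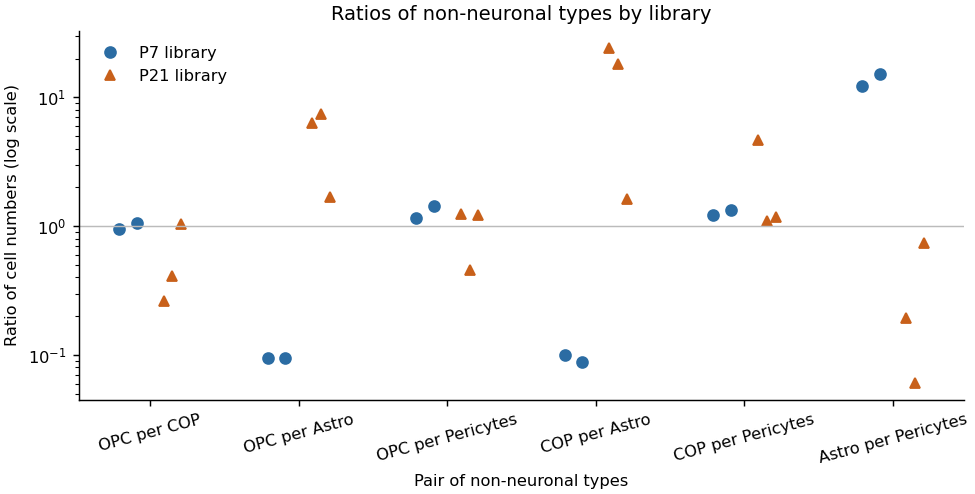
Ratios of cell numbers (vertical axis, log scale, line at 1) between pairs of the 4 non-neuronal types in each library, P7 as circles and P21 as triangles. The 3 ratios with astrocytes separated the ages, as with COP per astrocyte at 0.0890 and 0.1004 against 1.61 to 24.1, and the other 3 overlapped.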

How the data were processed

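Per the labels and the study's methods, cortical cells of pooled mice were sorted live and captured with 10x Genomics 3' chemistry, and the submitters' processing notes name Cell Ranger 3.0.1 and mm10. The labels also describe a sort of tdTomato-labelled neurons, and the libraries were taken as the live sort. The authors thinned libraries to a like coverage per cell and kept cells with at least 1000 and at most 6000 genes, at most 15000 UMIs and under 10% mitochondrial UMIs. The deposited table gave UMIs per cell as counts, the number of genes, and the mitochondrial share as a fraction, here turned into percent, with age, cluster and type. How the authors handled doublets is not given in the sources, and no doublet caller was run. No per-sample expression column was used.

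The library was read from the number after each barcode. Its sample within an age was not assigned. Library medians on the log2 scale, for at least 20 cells, were tested with limma 3.58.1 (R 4.3.3; threshold 0.05), P21 against P7, with Benjamini-Hochberg adjustment over 9 types and 4 measures, over 18 tests of mitochondrial and other UMIs (share times UMIs, within 0.1 of a whole number in 98.9% of cells), over 32 differences from CPN and over 6 ratios (0.5 cells added). Genes at matched UMIs came from a least-squares line per library. The prior degrees of freedom were infinite for mitochondrial share, ratios and the differences from CPN in UMIs, where all types share 1 spread. The differences from CPN, like the ratios, are linked to one another but were counted as independent, so their p-values may be too small. The same limit applies to the tests of single types, which came from the same libraries. The P7 libraries share a collection day and were not shown to be separate pools. All 9 types are named in each comparison. The types, measures and tests were chosen with earlier results of these data known. Alternatives were other minimum cell numbers (10 and 50), P7 libraries averaged, all libraries in the fit, weights by cells, stricter cell filters (1500 genes or 5% mitochondrial), leaving out each library, means, untransformed values and other matching. Joined types and the largest cluster of each type were added after seeing the data. Scripts were tested on simulated data. Values and plots were made in Python 3.11.15 (numpy 2.4.6; pandas 2.3.3). Permutation tests were enumerated in Python, and figures were drawn in matplotlib 3.10.9.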

Additional observations from a re-analysis of the deposited data

Results flagged for a closer look

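The change from P7 to P21 was set against that of CPN in the same libraries, and 22 of 32 differences passed the limma test after adjustment. They are given on the log2 scale, as the change of the type minus that of CPN, and no explanation was tested. For UMIs per cell the difference was 1.37 in Layer IV, 0.83 in SCPN, 1.04 in Inh_Npy and 1.14 in Inh_Vip. For genes per cell it was 0.74, 0.43, 0.60 and 0.64 in the same order. For mitochondrial share it was 0.50 in SCPN, 0.47 in Inh_Npy, 0.81 in Inh_Vip, 0.39 in OPC, 1.13 in astrocytes and 0.62 in pericytes. For genes at matched UMIs it was -0.11 in Layer IV, -0.10 in SCPN, -0.052 in Inh_Npy, -0.063 in Inh_Vip, -0.16 in OPC, -0.094 in COP, -0.15 in astrocytes and -0.14 in pericytes. All 22 share CPN as the reference, so they are not independent of one another. None was computed with CPN and Layer IV joined.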

How the results depend on the processing

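No paired analysis was possible because the libraries could not be tied to numbered samples and P7 and P21 libraries share no animal. With the P7 libraries averaged and counted as 1, the types called went from 6 to 2 for UMIs, from 5 to 2 for genes, from 5 to 3 for mitochondrial share, from 10 to 0 of 18 for mitochondrial and other UMIs in limma (3 at an unadjusted p under 0.05), and from 22 to 10 of 32 for differences from CPN. With at least 50 cells, which leaves fewer types, the counts were 3 of 5 for UMIs, 3 of 5 for genes, 4 of 5 for genes at matched UMIs, 6 of 10 for mitochondrial and other UMIs and 8 of 16 for differences from CPN. With split types joined they were 2, 3, 4 and 3 of 6 for UMIs, genes, genes at matched UMIs and mitochondrial share, and 0 of 12 for mitochondrial and other UMIs in limma (6 at an unadjusted p under 0.05). Windows called 1 of 5 (0.25 log2) and 2 of 5 types (3000 to 4000 UMIs) for genes at matched UMIs, and untransformed values 5 of 18 for mitochondrial and other UMIs. Leaving out each library gave 2 to 7 types for UMIs, 2 to 6 for genes, 4 to 9 for genes at matched UMIs, 3 to 6 for mitochondrial share, 0 to 12 for mitochondrial and other UMIs, 3 to 4 ratios and 10 to 22 differences from CPN. The lowest counts were reached without library 1 or 2, except for ratios, and for mitochondrial share also without library 8. The cause of these shifts was not tested, beyond the smaller number of libraries.

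Of 1265 values of single types or ratios under alternatives, 997 kept their direction and side of the threshold, 169 lost a call, 70 gained one and 29 turned direction. Those that turned were, on the log2 scale, as follows. Leaving out each library gave -0.17 to 0.029 for COP UMIs, -0.18 to 0.036 for COP other UMIs, -0.080 to 0.13 for CPN genes, -0.0015 to 0.10 for COP genes, -0.38 to 0.035 for pericyte genes and -0.0040 to 0.086 for pericyte genes at matched UMIs. For differences from CPN it gave -0.14 to 0.15 for astrocyte UMIs, -0.37 to 0.058 for pericyte UMIs and -0.034 to 0.078 for COP genes, and for COP per pericyte -0.16 to 0.89. With means over cells, genes were -0.017 in CPN and -0.076 in COP, astrocyte mitochondrial UMIs -0.075 and the COP difference from CPN in genes -0.059. With at least 1500 genes, COP genes were -0.057, astrocyte mitochondrial UMIs -0.066, and the COP differences from CPN -0.11 in UMIs and -0.16 in genes. Under 5% mitochondrial, astrocyte genes were 0.12, Inh_Npy share -0.083, astrocyte mitochondrial UMIs -0.0098, CPN other UMIs 0.0087, and the COP differences from CPN -0.064 in UMIs and -0.15 in genes. The COP difference from CPN in genes was -0.0044 with at least 50 cells, and the astrocyte difference in UMIs 0.12 in the largest clusters. With at least 10 cells the Inh_Npy share was -0.16, and at 3500 UMIs the Inh_Npy difference from CPN in genes at matched UMIs was 0.039.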

Other observations

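CPN at P7 were not uniform. Their 6 clusters had medians from 4467 to 9039.5 UMIs, and the cluster with the most UMIs, of 876 cells, had 3.05% mitochondrial UMIs, while the other 5 lay between 4.79% and 6.07%. The Layer IV cells of P21 had a median of 8902 UMIs and 2.81% mitochondrial UMIs. This cluster was picked after its values were seen, and no marker genes were available to compare them.

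Pericytes at P21 formed a cluster of 1251 cells with 5.34% mitochondrial UMIs and 2942 UMIs per cell, and one of 321 cells with 3.35% and 2312. The single P7 cluster of 84 cells stood at 4.54% and 3342.5. OPC at P21 formed a cluster of 1268 cells with 1896 UMIs and one of 215 cells with 2147, both below the 2736 of the P7 cluster.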
